A study of Mus musculus with 12 samples.

Results

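The genes described here are those whose expression in mouse liver shifted in the same direction and by like amounts, within stated bounds, in both genotypes 2 h after an acetaminophen (APAP) overdose. They were sought in 8 of the 12 arrays of a study of Pml, the gene of the scaffold protein of nuclear bodies. Livers came from 2.5-month-old female mice of the BALB/cByJ strain, either with Pml (wt) or without it (KO). In each genotype 2 arrays were from untreated mice and 2 from mice killed 2 h after an intraperitoneal dose of 300 mg/kg APAP in warmed PBS. Affymetrix Mouse Gene 1.1 ST arrays were used, 1 per liver sample, and the deposited intensities were taken to log2. The remaining 4 arrays, 2 per genotype at 6 h, enter no test below and are given as levels only. A vehicle injection of the untreated mice, the hour at which each group was killed, the design of the Pml deletion and whether each sample came from a separate animal are not given in the sources used here. P-values therefore measure the spread between these samples.

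A gene counted as moving alike when it met 4 conditions. Its mean response over both genotypes passed limma's test at an adjusted p under 0.05. In each genotype both 2 h arrays lay beyond both untreated arrays, on the same side. The smaller response was at least 50% of the larger. The 90% interval of the KO response minus the wt response lay within a log2 difference of 1, which is 2-fold. Where the larger response is below 2-fold, that bound alone would admit no response in the other genotype. Likeness then rests on the order of the arrays and on the ratio of the estimates. Of 17149 genes tested, 6368 had a called mean response, of which 2614 rose (15.2% of the genes tested) and 3754 fell (21.9%). Those moving alike were 3482, of which 1470 rose (8.57%) and 2012 fell (11.7%). In a further 21 genes (0.122%) the difference between the responses was itself called, and for 2865 called genes neither was settled. Since these classes rest on the measured responses, the sizes given for their members are descriptions and support nothing on their own. The shares of all genes tested are the values to set beside each count of a gene list below.

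Perivenous hepatocytes turn APAP, mainly through CYP2E1, into a reactive product that glutathione neutralises. Once glutathione runs out, the product binds to proteins. Cells answer such stress with immediate early genes, which are transcribed without new protein synthesis, and with slower programmes for protein folding, antioxidants and amino acid supply. Liver fuel use is set by opposing regulators, with PPAR-alpha driving the oxidation of fatty acids, and SREBP1 (Srebf1) and ChREBP (Mlxipl) driving their synthesis.

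The promoters of 4 genes that rose are shown because each holds a short motif of a stress-responsive factor. Each is the 250 bases before the start of the gene on its own strand, from RefSeq on GRCm38.p6, with the motif in capitals. The Zfp36 window (chr7:28379229-28379478, minus strand) holds a CArG box, the motif of serum response factor, which starts 58 bases before the gene. The Ppp1r15a window (chr7:45526269-45526518, minus strand) holds TGACGTCA, the cyclic AMP response element that ATF and CREB proteins recognise, 12 bases before the gene. The windows of the metallothionein genes Mt1 (chr8:94178839-94179088, plus strand) and Mt2 (chr8:94172368-94172617, plus strand) hold 1 and 3 copies of the core of the metal response element, TGCACNC or TGCGCNC. Both strands were searched, and the last copy in Mt2 is on the minus strand. Copies outside these 250 bases were not counted, so the counts of 1 and 3 do not compare the whole promoters.
Zfp36: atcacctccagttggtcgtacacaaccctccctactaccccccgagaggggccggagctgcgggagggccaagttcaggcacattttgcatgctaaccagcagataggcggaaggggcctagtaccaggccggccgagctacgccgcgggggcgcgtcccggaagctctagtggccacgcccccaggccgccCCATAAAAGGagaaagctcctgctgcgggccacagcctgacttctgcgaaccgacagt
Ppp1r15a: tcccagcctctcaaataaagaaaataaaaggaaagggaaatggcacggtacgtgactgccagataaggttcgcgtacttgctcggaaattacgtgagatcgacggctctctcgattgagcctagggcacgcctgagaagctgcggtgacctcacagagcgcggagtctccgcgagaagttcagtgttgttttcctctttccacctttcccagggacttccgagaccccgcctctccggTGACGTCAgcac
Mt1: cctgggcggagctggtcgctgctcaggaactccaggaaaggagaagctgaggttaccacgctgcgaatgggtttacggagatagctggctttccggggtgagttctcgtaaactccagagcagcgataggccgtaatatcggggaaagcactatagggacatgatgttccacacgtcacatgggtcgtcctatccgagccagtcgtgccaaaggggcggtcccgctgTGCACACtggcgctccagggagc
Mt2: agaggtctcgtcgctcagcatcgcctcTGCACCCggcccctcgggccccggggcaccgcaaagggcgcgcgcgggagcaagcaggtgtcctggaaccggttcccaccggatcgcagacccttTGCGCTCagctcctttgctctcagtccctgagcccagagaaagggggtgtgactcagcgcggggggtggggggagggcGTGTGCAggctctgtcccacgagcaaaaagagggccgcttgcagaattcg
Of the 32851 promoter windows of this length in the RefSeq table, 1.47% held a CArG box, 1.55% held TGACGTCA and 21.4% held the metal response core. A match describes the letters only, and factor binding was not measured. Of the 3482 genes moving alike, 2783 had a window in the table.

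**Figure D1:**
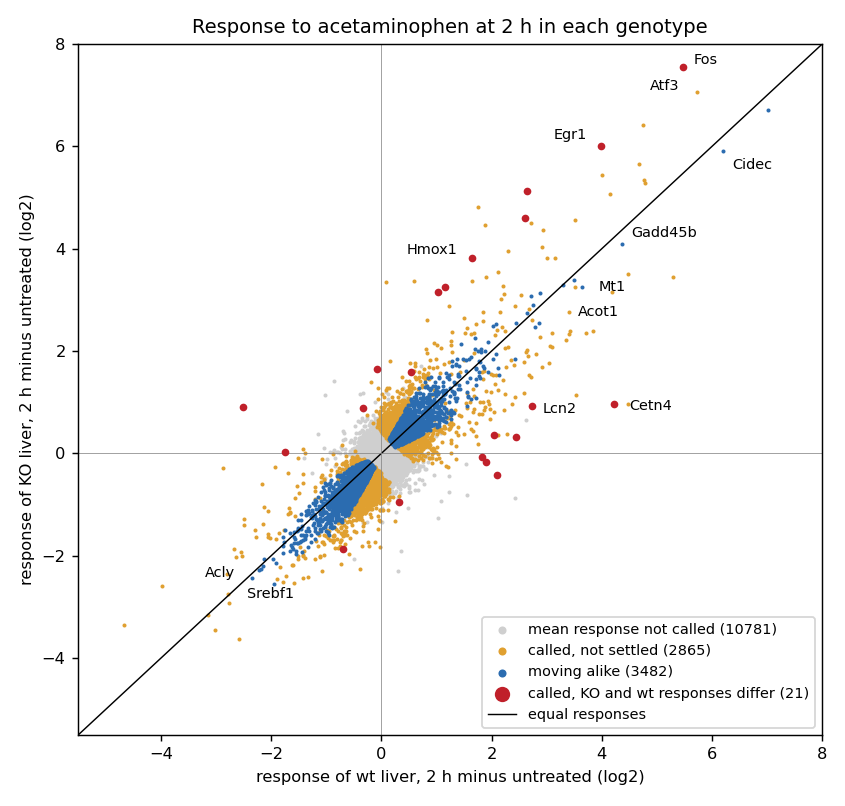
Response of wt liver (x axis) and KO liver (y axis) at 2 h minus untreated, log2 difference of means of 2 arrays, 1 point for each of 17149 genes, coloured by class; the line marks equal responses. Cidec and Acot1 lie close to the line at responses above 3, while Fos, Egr1 and Hmox1 lie above it and Cetn4 and Lcn2 below it.

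Pml, the targeted gene, stood at 8.18 and 8.46 (log2 intensity) in untreated wt liver and at 7.82 and 7.92 at 2 h. In KO liver it stood at 7.10 and 7.97 untreated and at 7.11 and 7.50 at 2 h. Untreated KO replicate 2, as labelled, was thus inside the range of the wt arrays at 7.97. The mean response of Pml was -0.34 ± 0.18 (adjusted p = 0.184), and -0.56 without untreated KO replicate 1 (adjusted p = 0.0166). Here and below, the error after ± is the standard error of the limma fit. The first principal component of the 8 arrays carried 65.1% of the variance and separated the untreated arrays (-31.8 to -27.1) from the 2 h arrays (22.4 to 38.5) in both genotypes. The KO 2 h arrays were the least alike pair, with a standard deviation of their log2 differences of 0.305 against 0.208 to 0.24 in the other 3 groups. Without KO 2 h replicate 2, the genes with a called difference between genotypes numbered 188 in place of 21, and those moving alike 3020. Without wt 2 h replicate 1, the genes called higher numbered 1741 and those moving alike and higher 964. The 10 hepatocyte markers listed summed to an intensity of 68639 to 78940 over the untreated arrays and 71322 to 78323 at 2 h with a median response of -0.01. Cyp2e1, which oxidises APAP, was as high at 2 h (13.16 and 13.22 in wt, 13.12 and 13.20 in KO) as untreated (13.21 and 13.13 in wt, 13.03 and 12.98 in KO), with a mean response of 0.09 ± 0.07 (adjusted p = 0.328).

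The genotypes share no array, so each can be tested on its own and set beside the other. In the 4 wt arrays alone limma called 2504 genes (14.6%), and in the 4 KO arrays alone 4200 (24.5%). Both fits called 1597 genes in the same direction and 7 in opposite directions. Those 1597 were 63.8% of the wt calls and 38.0% of the KO calls. Of the wt calls, 93.9% had the same sign of response in KO liver, called or not, against 71.8% of all genes tested. The median response of all genes was 0.019 in wt and -0.065 in KO. Across the 17149 genes, which are not independent replicates, the responses correlated at 0.774. The repeat rate rested on the untreated KO arrays. Without replicate 1 of them the KO fit called 814 genes and 23.7% of wt calls were repeated, and without replicate 2 it called 735 and 23.0%.

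Few responses of 4-fold or more were settled as alike, under a bound on the interval that is the same for every size of response. Among called genes, 316 rose at least 2-fold (1.84%) and 282 fell at least 2-fold (1.64%). Among those moving alike, 136 rose (0.793%) and 167 fell (0.974%) by that much, so 3179 of the 3482 changed by less than 2-fold. Of 117 genes called at 4-fold or more, 26 moved alike, 18 of them higher and 8 lower. The median size of the mean response of genes moving alike was 0.464 and that of the difference between genotypes 0.136, and the KO response was the larger in 2339 of them.

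Among genes moving alike, the predicted gene Gm15441, left out by the naming rule and picked after its values were seen, rose most (6.86 ± 0.09). Next came Cidec, which encodes a protein that fuses lipid droplets. On the log2 scale it stood at 5.02 and 5.56 in untreated wt liver, 5.56 and 5.18 in untreated KO liver, 11.50 and 11.48 in wt at 2 h and 10.95 and 11.59 in KO at 2 h. Every treated array thus lay far above every untreated one. Separation of all 8 arrays as such was common, in 3218 of the 3482 genes moving alike. The rise was 6.05 ± 0.17, or 66.2-fold (adjusted p = 5.66e-07), with a KO response minus wt response of -0.30 ± 0.34. Its untreated arrays were dim, and with 16 added to each intensity the log2 rise was 5.57.

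Acot1, a thioesterase that releases fatty acids from coenzyme A, had the closest match between genotypes among the 12 largest rises. It stood at 8.09 and 8.09 in untreated wt, 7.73 and 7.72 in untreated KO, 11.42 and 11.36 in wt at 2 h and 11 and 11.03 in KO at 2 h. KO values were below wt values in both conditions, and the responses were 3.30 ± 0.09 in wt and 3.29 ± 0.09 in KO. The wt arrays alone gave an adjusted p of 4.02e-05 and the KO arrays alone 7.46e-05. Its mitochondrial relative Acot2 rose by 2.82 ± 0.12 and the peroxisomal Acot4 by 0.95 ± 0.12. These genes are near copies of each other, so their probe sets may share signal.

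**Figure D2:**
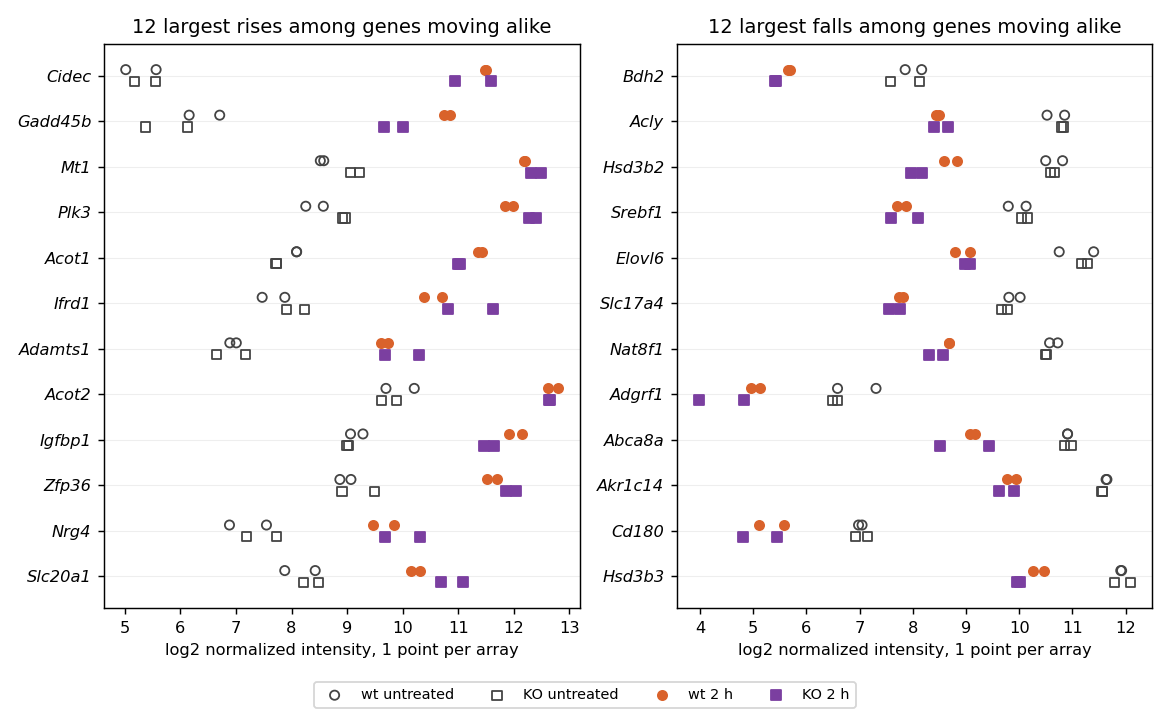
Log2 normalized intensity (x axis) of the 12 named genes with the largest rises (left) and falls (right) among those moving alike, 1 point for each of the 8 arrays; circles are wt, squares KO, open symbols untreated and filled symbols 2 h. In each row the open and filled symbols do not overlap within a genotype, which the class requires, and the rises reach from 2.30 for Slc20a1 to 6.05 for Cidec.

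Fatty acid oxidation genes rose together in both genotypes. Of 34 members of the list of PPAR-alpha and fatty acid oxidation genes tested, 29 rose by limma's test, 5 did not pass, and 23 moved alike. The list's median response was 0.69, against -0.014 over all tested genes, and among all tested genes 15.2% rose and 8.57% moved alike upward. In 11 of the 29 that rose KO had the larger response, beside 72.6% of all called genes. Pex11a, which divides peroxisomes, rose from 10.61 and 10.79 in untreated wt and 10.58 and 10.52 in untreated KO to 12.51 and 12.57 in wt and 12.24 and 12.29 in KO, a response of 1.78 ± 0.07 (adjusted p = 3.39e-06). Ehhadh, a peroxisomal oxidation enzyme, rose by 1.20 ± 0.08, and Crat, which transfers acyl groups to carnitine, by 1.18 ± 0.07. Among the mitochondrial steps, Cpt1a, which commits fatty acids to the mitochondrion, rose by 0.75 ± 0.07, its partner carrier Slc25a20 by 0.77 ± 0.07 and the dehydrogenase Acadm by 0.71 ± 0.07. Ppara, the receptor itself, had a response of 0.45 ± 0.14 (adjusted p = 0.0331). That call ended without any 1 of untreated wt replicate 1, untreated KO replicate 1 and the 4 arrays at 2 h (adjusted p of 0.0641 to 0.0972), and neither genotype alone passed (adjusted p = 0.164 in wt and 0.0877 in KO).

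Some of the strongest members of this list rose in both genotypes without being settled as alike. Fgf21, the starvation hormone of the liver, stood at 6.32 and 5.62 in untreated wt, 4.96 and 4.05 in untreated KO, 8.96 and 10.02 in wt at 2 h and 8.63 and 9.49 in KO at 2 h. It rose by 4.04 ± 0.32 (adjusted p = 8.12e-05), and the spread within groups left an interval of -0.13 to 2.21 for the KO minus wt response. Vnn1, a pantetheinase, rose by 3.08 ± 0.19 and Pdk4, which shuts pyruvate out of the mitochondrion, by 2.74 ± 0.32.

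Genes of lipid droplets and fat breakdown also rose, 13 of 21 tested, with 1 lower (none without wt 2 h replicate 2) and 8 moving alike, at a median of 0.82. Over all genes tested 15.2% rose and 21.9% fell. In 4 of the called members KO had the larger response, beside 72.6% of all called genes. Pnpla2, the lipase that starts the breakdown of stored fat, stood at 9.17 and 9.28 in untreated wt and 9.32 and 9.15 in untreated KO. At 2 h it stood at 11.25 and 10.95 in wt and 11.25 and 11.23 in KO, a rise of 1.94 ± 0.09 (adjusted p = 5.74e-06). Plin2, the main droplet coat protein of hepatocytes, rose by 1.37 ± 0.07, Lpin2, which makes diacylglycerol, by 1.79 ± 0.17 and Mgll, which completes the breakdown, by 0.82 ± 0.07. G0s2, an inhibitor of the Pnpla2 lipase, rose by 0.88 ± 0.15. Of the fat tissue markers, Adipoq, which defines fat cells, stood at 5.74 to 6.15 untreated and 6.10 to 6.28 at 2 h (mean response 0.18 ± 0.09, adjusted p = 0.146, and 0.26 with adjusted p = 0.042 without untreated KO replicate 1). The 7 fat tissue markers, Cidec among them, summed to an intensity of 586 to 678 untreated and 2611 to 3889 at 2 h. Cidec alone went from 32 to 47 untreated to 1976 to 3073 at 2 h, and the other 6 summed to 554 to 642 untreated and 636 to 816 at 2 h. Of these 7, 3 rose and 4 did not pass. Their part in the lipid droplet values was not tested.

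**Figure D3:**
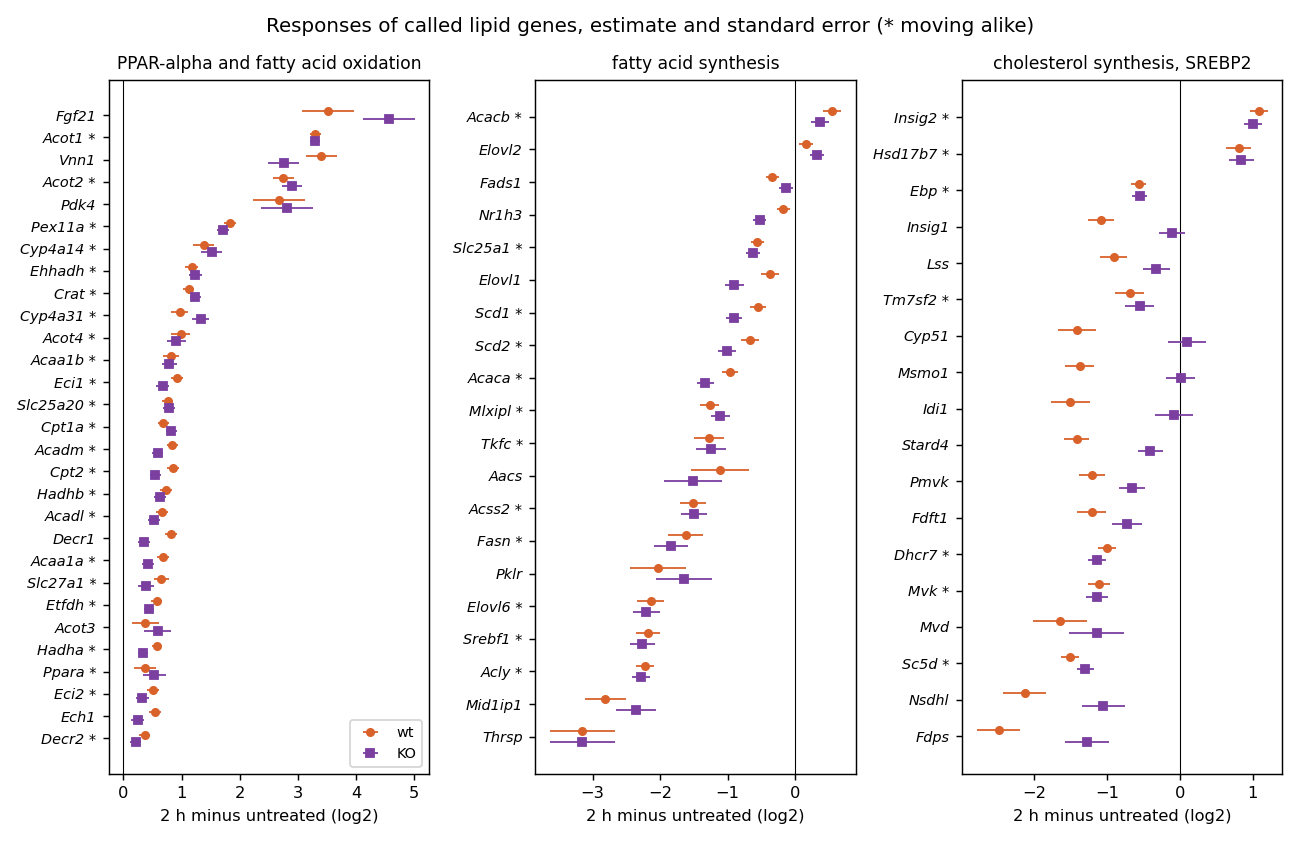
Response at 2 h minus untreated (x axis, log2) of the called genes of 3 lipid lists, with wt as circles and KO as squares; bars are standard errors of the fit and an asterisk marks genes moving alike. Oxidation genes lie above 0 in both genotypes, most synthesis genes lie below 0 in both, and several cholesterol genes lie below 0 in wt and near 0 in KO.

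Fatty acid synthesis moved the other way. Of 27 genes tested, 18 fell and 2 rose, 11 of the falls and 1 of the rises moved alike, and the median was -0.73. Srebf1, the transcription factor SREBP1 that drives the pathway, stood at 9.80 and 10.13 in untreated wt and 10.05 and 10.15 in untreated KO. After 2 h it stood at 7.70 and 7.87 in wt and at 8.09 and 7.59 in KO, a fall of 4.66-fold (log2 response -2.22 ± 0.13, adjusted p = 1.84e-05). Acly, which makes cytosolic acetyl-CoA, fell by 4.77-fold, from 10.52 and 10.85 in wt and 10.79 and 10.83 in KO to 8.49 and 8.44 in wt and 8.66 and 8.39 in KO. The 8 arrays separated completely for both genes, as they did for 3218 of the 3482 genes moving alike.

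The enzymes downstream fell in both genotypes. Acaca, which makes malonyl-CoA, had a mean response of -1.15 ± 0.09, Fasn, the fatty acid synthase, of -1.73 ± 0.18, and Elovl6, which lengthens palmitate, of -2.17 ± 0.14. Mlxipl, the carbohydrate-responsive regulator ChREBP, had a response of -1.19 ± 0.10. Thrsp, a lipogenic target of both regulators, had the same response of -3.15 in each genotype, but its wide interval (-1.25 to 1.25) kept it among genes not settled. Acacb, the carboxylase whose product restrains Cpt1a, rose instead, by 0.46 ± 0.09. The count of risers was 1 without untreated wt replicate 1, either untreated KO array or either wt 2 h array.

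Cholesterol synthesis genes fell too, and fewer of them were settled as alike. Of 25 genes tested 16 fell and 2 rose, and 5 of the falls and both rises moved alike. In 3 of the called genes KO had the larger response, beside 72.6% of all called genes. The median response of the list was -1.08 in wt and -0.33 in KO. Sc5d, a late enzyme of the pathway, stood at 12.06 and 11.98 in untreated wt, 11.80 and 11.84 in untreated KO, 10.62 and 10.40 in wt at 2 h and 10.40 and 10.63 in KO at 2 h (mean response -1.41 ± 0.08, adjusted p = 2.22e-05). Mvk, Dhcr7 and Ebp, which act early and late in the pathway, had mean responses of -1.13 ± 0.11, -1.07 ± 0.09 and -0.56 ± 0.08. Insig2, which holds SREBP proteins in the endoplasmic reticulum, rose by 1.04 ± 0.09.

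For other enzymes of the pathway the 2 h values were lower in wt and little moved in KO. Msmo1, a sterol demethylase subunit, had a response of -1.38 ± 0.20 in wt and 0.01 ± 0.20 in KO, and Idi1, an isomerase of the early pathway, of -1.51 ± 0.26 and -0.08 ± 0.26. The difference between the genotypes did not pass for either gene (1.39 ± 0.28, adjusted p = 0.133, and 1.42 ± 0.37, adjusted p = 0.169). For both, the KO 2 h arrays differed from each other, with Msmo1 at 10.93 and 10.51 and Idi1 at 10.91 and 10.28. Without KO 2 h replicate 1, 11 genes of the list moved alike in place of 7.

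**Figure D4:**
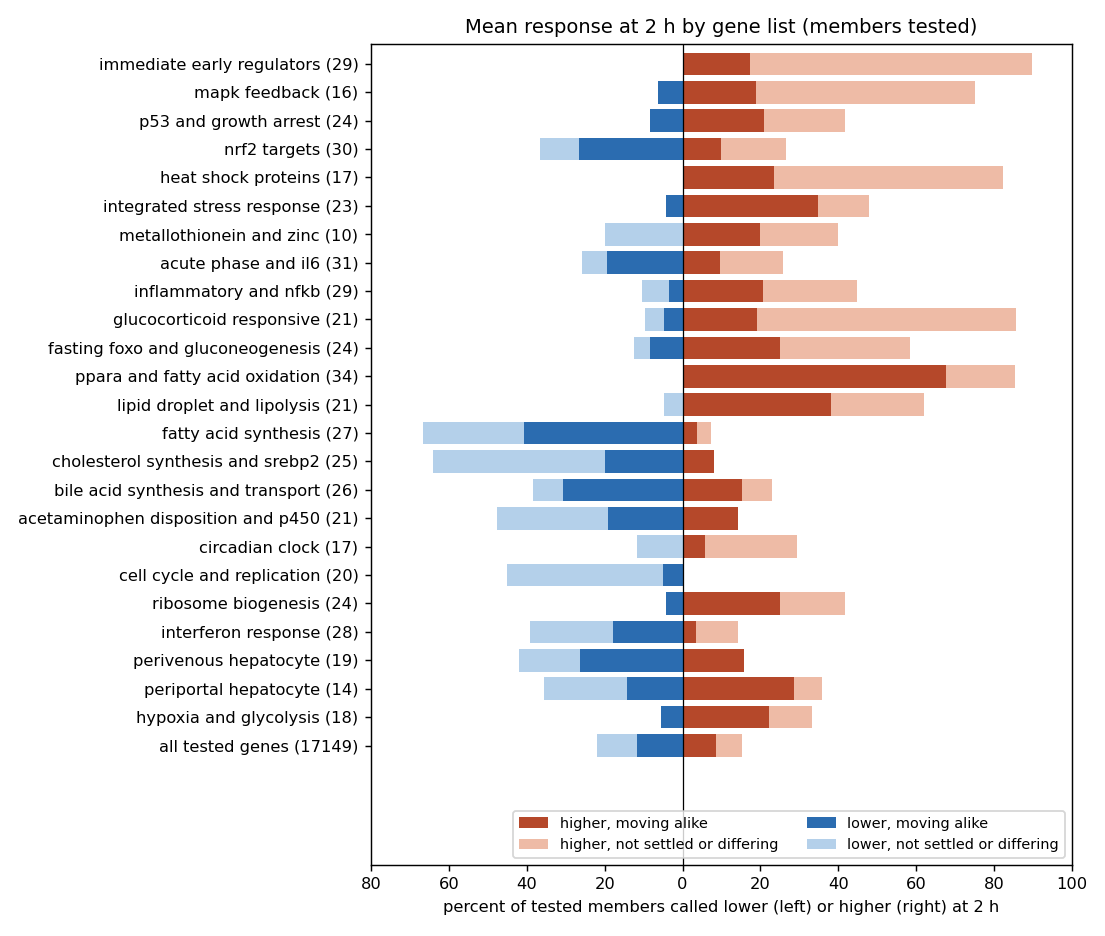
Percent of the tested members of each gene list called lower (left) or higher (right) at 2 h by limma, with the share moving alike in the darker colour and the number of members tested in brackets; the lowest bar gives all 17149 tested genes. The oxidation list has 23 of 34 members moving alike and higher, and the immediate early list 26 of 29 higher but 5 moving alike.

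Immediate early regulators rose, and for most of them likeness between the genotypes was not settled. Of 29 tested, 26 rose, 3 did not pass, 5 moved alike and 4 had a called difference between genotypes, and the median response was 2.57. The KO response was the larger in 24 of the 26, beside 72.6% of all called genes. Fos, the AP-1 subunit, stood at 4.35 and 3.93 in untreated wt, 3.98 and 3.67 in untreated KO, 9.47 and 9.74 in wt at 2 h and 11.29 and 11.45 in KO at 2 h. Its untreated arrays were dim, so the size of the change depends on how low values are treated. Its mean response was 6.51 ± 0.12, or 5.51 with 16 added to each intensity, and the KO response exceeded the wt response by 2.08 ± 0.25 (adjusted p = 0.0265). The call of that difference ended in the fit of all 12 arrays (adjusted p = 0.159) and without any 1 array other than untreated wt replicate 2 and KO 2 h replicate 2 (0.0504 to 0.135). Atf3, a stress-induced repressor, rose by 6.39 ± 0.20 and Jun, the partner of Fos, by 4.61 ± 0.17, both not settled.

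Those of the list that moved alike were Zfp36, Mafk, Nr4a2, Klf2 and Egr3. Zfp36 encodes tristetraprolin, which destroys messenger RNAs of cytokines, and its promoter with the CArG box is printed above. It stood at 8.87 and 9.07 in untreated wt, 8.91 and 9.49 in untreated KO, 11.53 and 11.70 in wt at 2 h and 11.86 and 12.03 in KO at 2 h. The rise was 2.69 ± 0.13 (adjusted p = 7.57e-06), with a KO minus wt difference of 0.10 ± 0.26. Mafk, a small MAF protein, rose by 1.54 ± 0.12, the nuclear receptor Nr4a2 by 1.16 ± 0.10 and the vascular factor Klf2 by 0.50 ± 0.10. Egr3 rose by 0.27 ± 0.08 (adjusted p = 0.0284), a call that ended without any 1 of untreated wt replicate 2, untreated KO replicate 2, either wt 2 h array or KO 2 h replicate 2 (adjusted p of 0.0523 to 0.0977). With 16 added to each intensity 8 members moved alike, as they did when KO 2 h replicate 2 was left out, and 3 did when untreated KO replicate 2 was.

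Growth arrest genes included 2 of the largest shared rises. Of 24 genes of the p53 and growth arrest list, 10 rose and 2 fell, and 5 and 2 of these moved alike. Among all genes tested 15.2% rose and 21.9% fell. The median response of the list was 0.25, at 0.53 in wt and 0.02 in KO. Gadd45b, a stress sensor that activates MAP kinases, stood at 6.16 and 6.71 in untreated wt, 6.13 and 5.38 in untreated KO, 10.85 and 10.75 in wt at 2 h and 10.01 and 9.67 in KO at 2 h, a rise of 18.7-fold (log2 4.23 ± 0.18, adjusted p = 4.53e-06). Plk3, a stress-activated kinase, stood at 8.57 and 8.26 in untreated wt and 8.96 and 8.92 in untreated KO, and at 11.99 and 11.83 in wt and 12.28 and 12.40 in KO at 2 h. It rose by 3.45 ± 0.09 (adjusted p = 3.78e-07). Mdm2, the ligase that degrades p53, rose by 1.22 ± 0.08 and Sesn2, a stress-induced brake on mTORC1, by 0.76 ± 0.08, while the related Sesn3 fell by 0.81. Cdkn1a, the cell cycle inhibitor p21, rose by 3.98 ± 0.49, but its untreated arrays ran from 6.02 to 8.74 and it was not settled.

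Feedback regulators of MAP kinase signalling rose in 12 of 16 members, with 1 lower and 4 moving alike (2 in the fit of all 12 arrays). Errfi1, an inhibitor of the EGF receptor, stood at 12.16 to 12.50 over the untreated arrays and 12.95 to 12.99 at 2 h, and rose by 0.64 ± 0.06. Dusp10, a phosphatase of stress kinases, rose by 0.94 ± 0.08. The 1 member called lower was Spry2 (-0.44 ± 0.12), whose call ended without untreated wt replicate 2, untreated KO replicate 2 or wt 2 h replicate 1 (adjusted p of 0.0597 to 0.0682). Without KO 2 h replicate 2, 2 members were called lower.

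The integrated stress response, which slows translation and switches on amino acid supply, rose in 11 of 23 members and fell in 1, with 8 and 1 moving alike and a median of 0.28. Ppp1r15a, which restores translation by directing a phosphatase to eIF2-alpha and whose promoter is printed above, stood at 6.70 and 6.45 in untreated wt and 6.60 and 6.54 in untreated KO. It reached 8.56 and 8.65 in wt and 9.06 and 9.06 in KO, a rise of 2.26 ± 0.08 (adjusted p = 1.4e-06). Cebpb, a transcription factor of stressed liver, rose by 1.76 ± 0.16, the pseudokinase Trib3 by 1.34 ± 0.12, Herpud1, which aids the clearance of misfolded proteins, by 0.95 ± 0.07, and Atf4, the regulator of the programme, by 1.15 ± 0.10. Atf4 lay just inside the bound, with a wt response of 0.84 and a KO response of 1.47. The count that fell was 2 without either KO 2 h array and with quantile normalization.

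**Figure D5:**
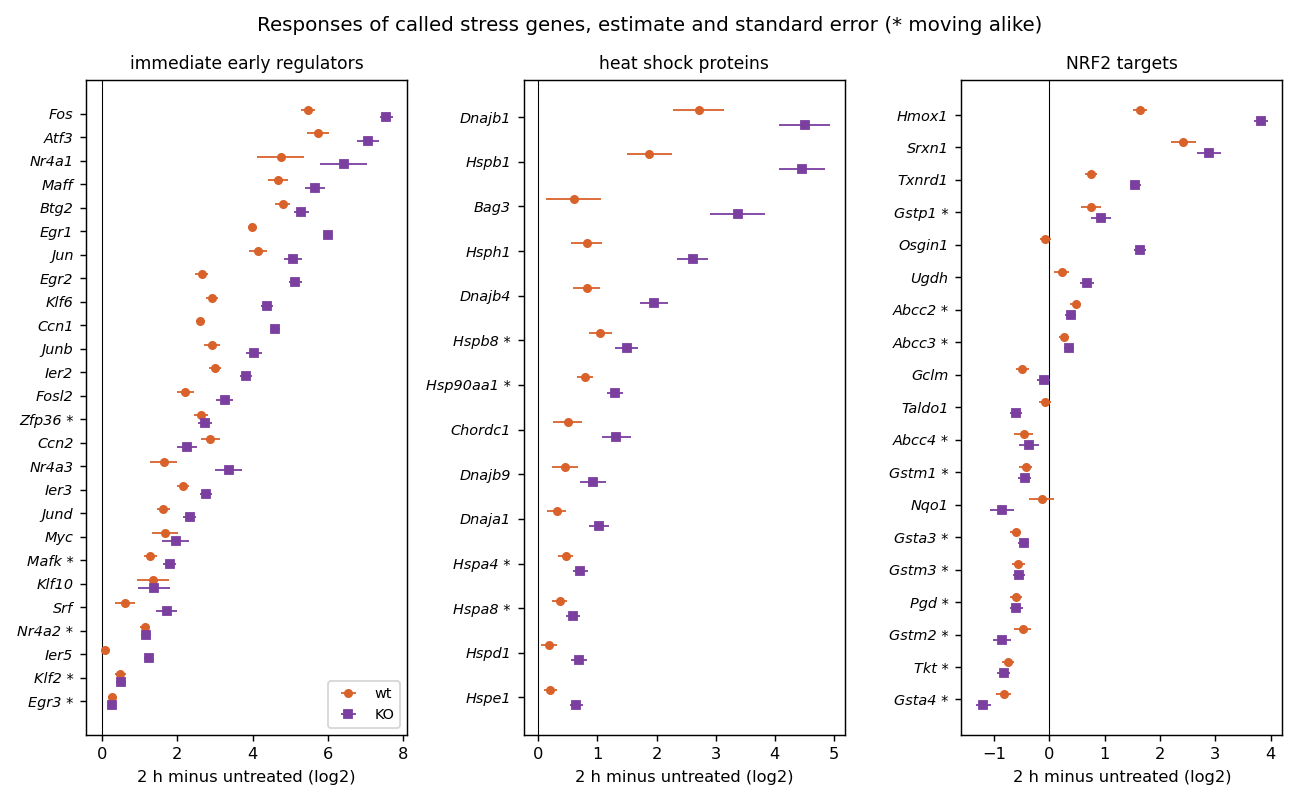
Response at 2 h minus untreated (x axis, log2) of the called genes of 3 stress lists, with wt as circles and KO as squares; bars are standard errors of the fit and an asterisk marks genes moving alike. Most immediate early and heat shock genes lie further right in KO, while glutathione transferase genes such as Gstm1 and Gsta3 lie below 0 at like values in both genotypes.

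Heat shock proteins rose in 14 of 17 members, 3 did not pass, and 4 moved alike. The KO response was the larger in all 14 that rose, beside 72.6% of all called genes. The median response of the list was 0.47 in wt and 1.16 in KO. Hsp90aa1, an inducible chaperone, stood at 11.02 and 10.73 in untreated wt and 11.26 and 11.40 in untreated KO, and at 11.59 and 11.75 in wt and 12.72 and 12.54 in KO at 2 h. It rose by 1.04 ± 0.09 (adjusted p = 0.000136). Its 3 probe sets gave responses of 0.70 to 0.79 in wt and 1.23 to 1.39 in KO. Hspb8, a small heat shock protein, rose by 1.27 ± 0.14, Hspa4 by 0.59 ± 0.09 and Hspa8, a chaperone present in unstressed cells, by 0.47 ± 0.09. Hspb1 and the co-chaperone Bag3 gave values further apart, at 1.88 ± 0.38 and 0.60 ± 0.47 in wt against 4.46 ± 0.38 and 3.37 ± 0.47 in KO, with no called difference (adjusted p = 0.136 and 0.152). Without untreated wt replicate 2 the number moving alike was 0.

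For the counts of the metallothionein and zinc list at the end of this paragraph, the shares among all genes tested were 15.2% higher and 21.9% lower. Mt1, a metallothionein that binds zinc and copper, was among the largest rises. It stood at 8.58 and 8.52 in untreated wt, 9.07 and 9.23 in untreated KO, 12.19 and 12.20 in wt at 2 h and 12.31 and 12.48 in KO at 2 h. The rise was 10.9-fold (3.45 ± 0.08, adjusted p = 1.15e-07), with untreated KO arrays above untreated wt arrays and all 2 h arrays within 12.19 to 12.48. Its neighbour Mt2 rose by 3.66 ± 0.31. Untreated KO replicate 2 stood at 10.85 for Mt2 against 8.60 to 9.16 in the other untreated arrays, and the gene was not settled. Mt4, the other member that moved alike, had a response of 0.32 ± 0.08 (adjusted p = 0.0182, and 0.0623 to 0.0673 without untreated wt replicate 2, untreated KO replicate 1 or wt 2 h replicate 1). Of the 10 metallothionein and zinc genes 4 rose and 2 fell, and 2 moved alike, or 1 with quantile normalization or without untreated wt replicate 2, untreated KO replicate 1 or wt 2 h replicate 1.

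Targets of NRF2, the antioxidant regulator, split. Of 30 tested, 8 rose and 11 fell, 3 and 8 of these moved alike, and the median was -0.04. Over all genes tested 15.2% rose and 21.9% fell. The shared falls were mostly enzymes of glutathione conjugation and the pentose phosphate route. Gsta3, a glutathione transferase, stood at 12.65 and 12.67 in untreated wt, 12.66 and 12.59 in untreated KO, 12.04 and 12.07 in wt at 2 h and 12.24 and 12.09 in KO at 2 h, a response of -0.53 ± 0.07 (adjusted p = 0.000785). Gsta4 had a response of -1.01 ± 0.10, Gstm1 of -0.44 ± 0.09 and Gstm3 of -0.55 ± 0.08. Tkt and Pgd, of the route that supplies NADPH, had responses of -0.79 ± 0.08 and -0.60 ± 0.08. Gstm genes are near copies of each other, so their probe sets may share signal.

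The NRF2 targets that rose alike were Gstp1, a transferase studied for its part in APAP toxicity, at 0.85 ± 0.13, and the export pumps Abcc2 and Abcc3 at 0.43 ± 0.07 and 0.31 ± 0.07. Other members of the list did not move alike. Hmox1, heme oxygenase 1, had a response of 1.64 ± 0.13 in wt and 3.82 ± 0.13 in KO, a difference of 2.18 ± 0.18 (adjusted p = 0.00525, and 0.0696 in the fit of all 12 arrays). Srxn1, sulfiredoxin, rose by 2.66 ± 0.16 and was not settled. Gclc, which limits glutathione synthesis, was not called (0.16 ± 0.08, adjusted p = 0.158).

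Genes that respond to fasting and to FOXO factors rose in 14 of 24 members and fell in 3, with 6 and 2 moving alike. Over all genes tested 15.2% rose and 21.9% fell. Igfbp1, a secreted protein that binds insulin-like growth factors and is repressed by insulin, stood at 9.06 and 9.29 in untreated wt and 9.0 and 9.02 in untreated KO. It stood at 11.92 and 12.15 in wt and 11.47 and 11.64 in KO at 2 h, a rise of 6.51-fold (2.70 ± 0.09, adjusted p = 1.13e-06). Sik1, a kinase that restrains gluconeogenesis, rose by 1.58 ± 0.11, Foxo1 by 1.20 ± 0.09 and Pck1, the gluconeogenic carboxykinase, by 0.54 ± 0.08. The insulin receptor substrates went opposite ways, with Irs2 at 1.08 ± 0.22 and Irs1 at -0.94 ± 0.20. Per the labels the mice had free access to food. Leaving out KO 2 h replicate 2, or untreated KO replicate 2, gave 5 moving alike in place of 8.

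Glucocorticoid-responsive genes rose in 18 of 21 members and fell in 2, at a median of 1.74, and 5 moved alike. In 5 of the called members KO had the larger response, beside 72.6% of all called genes. The median was 1.87 in wt and 1.26 in KO. Klf9, a repressor induced by the hormone, rose by 1.07 ± 0.09 from 9.43 to 9.75 over the untreated arrays to 10.54 to 10.89 at 2 h. Tdo2, which degrades tryptophan, rose by 0.45 ± 0.06, while Nr3c1, the receptor itself, fell by 0.49. The number moving alike was 9 without untreated wt replicate 2. Per1, a clock gene that glucocorticoids induce, rose by 1.82 ± 0.19 and was not settled. Of 17 clock genes tested, 5 rose and 2 fell, beside 15.2% and 21.9% of all genes tested, and 1 moved alike. Ciart, a clock gene picked after its values were seen, had responses of 4.76 in wt and 5.35 in KO. A dimmer probe set of it gave 4.25 and 4.45. The hour of killing is not given, and its part in these values was not tested.

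Among other large shared rises, Ifrd1, a stress-induced co-regulator, rose by 3.01 ± 0.19 on its bright probe set, while a dim one gave 0.17 in wt and 0.23 in KO, and the mean of both rose by 1.60. Adamts1, a secreted protease, rose by 2.90 ± 0.16, and Nrg4, a hormone-like ligand of ErbB4, by 2.49 ± 0.21. Slc20a1, a phosphate carrier, rose by 2.30 ± 0.14. None of these 4 is a member of a list used here.

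Genes of bile acid and steroid metabolism were among the shared falls. Akr1d1, which reduces the steroid ring of bile acid precursors, stood at 11.23 and 11.38 in untreated wt, 11.23 and 11.34 in untreated KO, 9.76 and 9.34 in wt at 2 h and 9.96 and 9.61 in KO at 2 h, a fall of 3.09-fold (adjusted p = 5.54e-05). Of 26 bile acid genes tested, 10 fell and 6 rose, and 8 and 4 of these moved alike. Over all genes tested 21.9% fell and 15.2% rose. Abcb11, the bile salt export pump, had a response of -0.88 ± 0.08, Fgfr4, the receptor through which the gut restrains bile acid synthesis, of -1.0 ± 0.08, and Cyp2c70, which makes muricholic acids, of -0.90 ± 0.07. Abcb4, the phospholipid flippase of the canaliculus, rose by 0.97 ± 0.09.

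Hsd3b2 and Hsd3b3, steroid dehydrogenases, had responses of -2.25 ± 0.10 and -1.76 ± 0.09. They are near copies of each other, so their values may not be independent. Akr1c14, another steroid dehydrogenase, stood at 11.56 to 11.65 untreated and 9.61 to 9.95 at 2 h (-1.79 ± 0.09, adjusted p = 7.38e-06). The largest named fall among genes moving alike was Bdh2, a cytosolic dehydrogenase, from 7.86 and 8.17 in untreated wt and 8.13 and 7.58 in untreated KO to 5.69 and 5.65 in wt and 5.43 and 5.40 in KO, a fall of 5.24-fold (adjusted p = 1.18e-05). Its 2 h arrays were dim, and its rank depends on how low values are treated. With 16 added to each intensity its log2 response was -2.06, against -2.20 for Acly and -2.14 for Elovl6. The organic anion carrier Slc17a4, the acetyltransferase gene Nat8f1 and the transporter Abca8a had responses of -2.09 ± 0.08, -2.02 ± 0.08 and -1.86 ± 0.18.

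Of 21 genes of APAP disposition and cytochromes P450, 10 fell and 3 rose, with 4 and 3 moving alike. Cyp2b10, a target of the xenobiotic receptor CAR, rose by 1.09 ± 0.14 from 11.19 to 11.87 over the untreated arrays to 12.49 to 12.58 at 2 h, and Nr1i2, the xenobiotic receptor PXR, rose by 0.66 ± 0.09. Of 19 perivenous hepatocyte genes 8 fell and 3 rose. Of 14 periportal genes 5 fell and 5 rose. Beside each list of this paragraph, 21.9% of all genes tested fell and 15.2% rose. Rgn, a perivenous calcium-binding protein, had a response of -0.88 ± 0.09, and Otc, a urea cycle enzyme of periportal cells, of -0.47 ± 0.07. In the perivenous list 8 moved alike, or 5 without untreated wt replicate 2, and in the periportal list 6 did, or 3 without KO 2 h replicate 2. Periportal genes called higher were 3 without wt 2 h replicate 1.

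Some markers of liver macrophages and some interferon response genes fell, while most members of both lists did not. In bulk tissue, fewer cells of a type and less RNA per cell cannot be told apart. Of 15 Kupffer cell and macrophage markers tested, 6 fell, 1 rose and 8 did not pass, and 5 and 1 of these moved alike, beside 21.9% lower among all genes tested. Adgre1, the macrophage marker F4/80, stood at 8.22 and 8.31 in untreated wt and 8.40 and 8.23 in untreated KO, and at 7.50 and 7.37 in wt and 7.45 and 7.17 in KO at 2 h (-0.92 ± 0.09, adjusted p = 0.000186). Csf1r, the receptor that keeps macrophages alive, had a response of -0.61 ± 0.09 and Timd4, of resident Kupffer cells, of -0.70 ± 0.12. Clec4f, which only Kupffer cells express in mouse liver, had a mean response of -0.06 ± 0.10 and did not pass (adjusted p = 0.654). Cd163, a scavenger receptor that glucocorticoids induce, rose by 0.50 ± 0.07. The 15 markers summed to an intensity of 7842 to 8808 over the untreated arrays and 6321 to 7229 at 2 h, without overlap. Of 14 markers of sinusoidal endothelium, 5 were called lower, beside 21.9% of all genes tested, and 9 did not pass. Without untreated KO replicate 1, wt 2 h replicate 2 or KO 2 h replicate 1, 1 of the 14 was called higher. The median response of the 14 was -0.15, and 3 moved alike. These 14 markers summed to 9873 to 10548 untreated and 8032 to 9567 at 2 h, also without overlap. Kdr, the main receptor of vascular endothelial growth factor, had a response of -0.64 ± 0.08, Gpr182, a receptor of these cells, of -0.67 ± 0.11 and Fcgr2b, an antibody receptor, of -0.53 ± 0.07.

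Of 28 interferon response genes, 11 fell, 4 rose and 13 did not pass, with 5 and 1 moving alike. Over all genes tested 21.9% fell and 15.2% rose. Gbp7, an interferon-induced GTPase, had a response of -1.38 ± 0.12 (adjusted p = 0.000109), Gbp2 of -1.24 ± 0.12 and Psmb8, an immunoproteasome subunit, of -0.94 ± 0.10. Isg20, a ribonuclease, rose by 1.03 ± 0.10. Cd180, a Toll-like receptor relative of B cells and macrophages, was among the 12 largest falls, at 6.93 to 7.15 untreated and 4.81 to 5.59 at 2 h (-1.79 ± 0.16). The part of the lower macrophage markers in these values was not tested.

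Inflammatory genes rose in 13 of 29 members and fell in 3, with 6 and 1 moving alike. In 5 of the called members KO had the larger response, beside 72.6% of all called genes. Il1rn, the interleukin 1 receptor antagonist, rose by 1.26 ± 0.13 and Il1b by 0.66 ± 0.14. In the same arrays 2 of 11 neutrophil markers were called higher, near the share of 15.2% among all genes tested. The count was 4 without KO 2 h replicate 1. It was 1 when untreated KO replicate 2, untreated wt replicate 2 or either wt 2 h array was left out. The neutrophil markers summed to an intensity of 919 to 1440 untreated and 1940 to 2352 at 2 h. Lcn2, which is also in the acute phase and glucocorticoid lists, went from 214 to 765 untreated to 1316 to 1618 at 2 h. The other 10 summed to 638 to 704 untreated and 624 to 859 at 2 h, which overlap, and their part in the inflammatory values was not tested. Of the acute phase genes 8 of 31 rose and 8 fell, beside 15.2% and 21.9% of all genes tested. Haptoglobin (Hp) had a response of 0.57 ± 0.08 and hepcidin (Hamp), the iron hormone, of -0.58 ± 0.09. Lrat, the retinol esterase that marks stellate cells, stood at 9.08 to 9.74 untreated and 7.62 to 8.27 at 2 h (-1.53 ± 0.14, adjusted p = 0.00016). Of 13 stellate and fibroblast markers 3 fell and 2 rose, near the shares of 21.9% and 15.2% among all genes tested. Those that rose were 1 without any 1 of both untreated wt arrays, untreated KO replicate 1 and both wt 2 h arrays. These markers summed to 6314 to 7789 untreated and 5829 to 7519 at 2 h.

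Ribosome biogenesis genes rose in 10 of 24 members and fell in 1 (none without untreated wt replicate 2, untreated KO replicate 2 or wt 2 h replicate 1). Those that rose numbered 5 without untreated KO replicate 2, wt 2 h replicate 2 or KO 2 h replicate 1, 6 without untreated wt replicate 2 and 12 without untreated wt replicate 1. Ddx21, a nucleolar helicase, rose by 0.58 ± 0.12 and Polr1b, a subunit of RNA polymerase I, by 0.52 ± 0.11, and both moved alike. Of 18 genes of hypoxia and glycolysis, 6 were higher and 1 lower (2 without KO 2 h replicate 2). Beside both lists of this paragraph, 15.2% of all genes tested rose and 21.9% fell. Aldoa, aldolase A, rose by 1.06 ± 0.10 and Bnip3, a mitophagy receptor, by 0.87 ± 0.09. Pdk1, an inhibitor of pyruvate dehydrogenase, had a response of -1.29 ± 0.11.

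Levels at 6 h, which the choice of genes did not use, are given for the leading genes without a test, because responses at both times share the untreated arrays. Cidec stood at 10.95 and 10.47 in wt and 10.60 and 9.99 in KO, Acot1 at 10.90 and 10.55 in wt and 10.56 and 9.78 in KO, and Mt1 at 12.61 and 12.44 in wt and 12.29 and 12.14 in KO. Each of these values lay above all 4 untreated arrays. Srebf1 stood at 7.84 and 7.71 in wt and 7.59 and 7.76 in KO, within its 2 h range. Igfbp1 stood at 11.66 and 11.08 in wt but at 8.46 and 7.68 in KO, below its untreated KO arrays. Zfp36 stood at 11.44 and 10.83 in wt, above all untreated arrays, and at 9.44 and 8.58 in KO, not above their highest value of 9.49. Plk3 stood at 11.91 and 11.80 in wt and 10.64 and 8.96 in KO, where the lower value equalled the highest untreated one. Elovl6 stood at 8.59 and 9.39 in wt and 10.59 and 11.27 in KO, where 1 KO value lay in the untreated range of 10.75 to 11.40 and the other just below it.

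The bound that defines moving alike cut through genes of much the same kind. Just inside it, with the far end of the interval at 0.9977 or more, were S1pr1, the sphingosine 1-phosphate receptor of endothelium, Atf4 and Adgrf1, an adhesion receptor. Just outside it, at 1.0008 to 1.0030, were Psme2, a proteasome activator subunit, Cyp17a1, a steroid hydroxylase, and the Toll-like receptor gene Tlr12. Cyp17a1 rose by 2.73 ± 0.33 in wt and 2.60 ± 0.33 in KO, closer together than Atf4 at 0.84 ± 0.14 and 1.47 ± 0.14, and the spread of its arrays placed it outside. Of the 2865 called genes not settled, 2541 had a smaller response under 50% of the larger or of opposite sign, 774 an interval beyond the bound and 959 overlapping arrays in a genotype, and a gene can fail in several ways.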

How the data were processed

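Liver RNA was measured on 12 Affymetrix Mouse Gene 1.1 ST arrays, of which 8 enter the tests. The submitters' processing notes name RMA and the Affymetrix Expression Console and give no version. The deposited values are RMA intensities, linear rather than log2 (median per array 82.3 to 90.1), so log2 was taken here with nothing added. The number of arrays limits the precision. Titles gave the groups, except that 1 wt 2 h array with a cut title was placed by its source name.

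Symbols came from the platform annotation. Of 35556 probe sets, 21218 had 1 symbol, 1881 several and 12457 none. Those with 1 symbol were used, the brightest per gene, at a mean log2 of at least 5 over the 8 arrays, which left 17149 genes. limma 3.58.1 in R 4.3.3 (lmFit, eBayes without trend) fitted 4 group means, with 4 residual and 4.23 prior degrees of freedom. P-values are two-sided and adjusted over all genes within a contrast by the Benjamini-Hochberg method. The wt and KO arrays were also fitted apart. The fit was tested on simulated data with independent normal noise. Of 200 genes changed by a log2 of 1 in both genotypes, 98% were classed as moving alike. Of 200 changed by a log2 of 2 in KO only, 0% were. Unequal responses in both genotypes, deviating arrays and dependence between genes were not simulated.

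The members and the 35 gene lists were chosen with earlier results of these data known. Named genes are Pml and Cyp2e1, the 12 largest rises and falls among genes moving alike (predicted genes, such as those named Gm with a number or ending in Rik, microRNAs and the like left out), for each list up to 5 members moving alike, by smallest p, and those that differ, the 6 smallest p of the difference, 3 genes on each side of the bound and 14 genes always looked up. Cpt1a, Slc25a20, Acadm, Acot4, Ppara, Fgf21, Vnn1, Pdk4, G0s2, Adipoq, Fasn, Thrsp, Acacb, Msmo1, Idi1, Hspb1, Bag3, Srxn1, Abcc2, Abcc3, Irs1, Irs2 and Clec4f are outside that rule and were chosen after their values were seen. Alternatives were a filter at a mean log2 of 7 or none, quantile normalization, averaged probe sets, log2 of the value plus 16, a variance trend, all 12 arrays, the replicate number as a block, an additive model, other bounds and each array left out. Without each array, the separate fits and list counts were chosen after seeing the data.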

Additional observations from a re-analysis of the deposited data

Results flagged for a closer look

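Among genes whose mean response was called, the response differed between genotypes by limma's test of the difference itself in 11 genes named here. The KO response was the larger for Egr1 (KO minus wt response 2.02, adjusted p = 0.00424), Hmox1 (2.18, adjusted p = 0.00525), Osgin1 (1.72, adjusted p = 0.00525), Ccn1 (1.98, adjusted p = 0.00573), Egr2 (2.48, adjusted p = 0.0105) and Fos (2.08, adjusted p = 0.0265). In each of these both KO 2 h arrays lay above both wt 2 h arrays. The wt response was the larger for Cetn4 (-3.27, adjusted p = 0.00367), Sftpa1 (-2.52, adjusted p = 0.00525), Necab2 (-2.14, adjusted p = 0.00424), Cd3e (-1.91, adjusted p = 0.02) and Lcn2 (-1.80, adjusted p = 0.0112). A second, similarly dim probe set of Cetn4 gave 0.64 in wt and 0.14 in KO, and the mean of both a difference of -1.88. Lcn2 stood higher in untreated KO (9.38 and 9.58) than in untreated wt (7.74 and 8.04), and the 2 h arrays lay within 10.36 to 10.66. In the fit of all 12 arrays the calls of Egr1, Hmox1, Osgin1, Ccn1, Egr2, Fos, Lcn2, Necab2 and Cd3e ended (adjusted p of 0.0503 to 0.22). Leaving out 1 array ended the calls of Cd3e (0.0597 to 0.122), Fos (0.0504 to 0.135), Egr2 (0.0502 to 0.0758), Lcn2 (0.0758 to 0.118) and Ccn1 (0.0515) in at least 1 case each, and the replicate block those of Cd3e (0.0511) and Fos (0.0569). The additive model ended the call of the mean response of Osgin1 (0.0659), Cd3e (0.07) and Sftpa1 (0.161).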

How the results depend on the processing

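No call of a named gene reversed under any alternative run. With a mean log2 of at least 7, 1633 genes were called higher, 970 moved alike and higher and 11 differed between genotypes, since fewer genes were tested. Genes that differed numbered 5 in the fit of all 12 arrays and 13 with the replicate number as a block. The replicate numbers did not pair the samples (correlations of deviations from -0.135 to 0.184), and the block left 6279 genes called and 3406 moving alike. Leaving out 1 array in turn gave 4558 to 6172 genes called, 1741 to 2488 of them higher, and 2478 to 3475 moving alike, 964 to 1451 of them higher. It gave 8 to 188 that differed. The separate fits gave 849 to 2504 calls in wt and 735 to 4200 in KO, the highest where the array left out was of the other genotype, and 577 to 1535 in both, and 23.043% to 76.081% of wt calls were repeated. Quantile normalization left 6473 called, 46.0% of them higher against 41.0%, and 85.1% of the genes moving alike kept that class. That share was 70.3% at a mean log2 of 7, 93.6% to 98.2% under 6 other settings, and 65.3% (without wt 2 h replicate 1) to 80.8% without 1 array. The cause was not tested. With 2 arrays a group, differences between genotypes as large as 3.51 did not pass in genes with a called mean response, and the smallest that did was 1.06.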
